A study of Mus musculus with 6 samples.

Results

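The genes described here are 32 that write, erase or read chemical marks on RNA, taken as a fixed list of names from the 17385 protein-coding genes of a hippocampal mRNA sequencing table. They were measured in 3 5xFAD mice and 3 wild-type (WT) mice aged 3 months. By mark they comprise 2 genes of N4-acetylcytidine (ac4C), 16 of N6-methyladenosine (m6A: 8 writers, 2 erasers and 6 readers), 6 of 5-methylcytidine (m5C), 4 of pseudouridine, 2 of N7-methylguanosine (m7G) and 2 of the A-to-I editing family. All 32 were in the table, 31 under their current symbol. The other, Virma, was listed under the older symbol 1110037F02Rik and matched by its Ensembl identifier (ENSMUSG00000040720). Of the 32 genes, 31 had enough counts to be tested, among 13937 tested in all, and the untested gene was Ythdf3.

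The 5xFAD mouse is a C57BL/6J-background line with human transgenes that bear mutations of familial Alzheimer's disease, including APP with the Swedish, Florida and London mutations. The transgenes are driven by the mouse Thy1 promoter, so they are expressed mainly in neurons. WT mice carried no transgene. All animals were perfused with saline, and the study's methods describe their sex in more than 1 way, so sex was not considered. The tissue was whole hippocampus, in which many cell types are mixed.

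Marks on RNA are set by writer enzymes, removed by erasers and bound by reader proteins that steer splicing, export, translation and decay. In mammals ac4C is made by a single known enzyme, NAT10, which works on transfer RNA with the help of THUMPD1. Most m6A in mRNA is made by a nuclear complex in which METTL3 is the active subunit, METTL14 supports RNA binding, and WTAP, VIRMA, ZC3H13, RBM15 and CBLL1 hold and guide the pair. In the brain m6A is abundant and has been tied to neurogenesis and memory, and A-to-I editing recodes transcripts of glutamate receptors. The comparison asks whether the transcripts of this machinery differ in level at an early age of the model. The libraries measure the amount of each transcript, and not the marks or the enzymes themselves.

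Mettl3, Mettl14 and Mettl16 encode proteins of the methyltransferase family whose sequences differ, among other places, at a short motif, the place of the catalytic residues in an active enzyme. They are shown because the 3 transcripts are compared below, with the motif codons in capitals and 54 coding bases of each gene in all (GRCm38, GENCODE M21, coding strand).
Mettl3: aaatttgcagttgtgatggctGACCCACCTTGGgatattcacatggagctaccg
Mettl14: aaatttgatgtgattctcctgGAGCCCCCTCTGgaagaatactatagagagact
Mettl16: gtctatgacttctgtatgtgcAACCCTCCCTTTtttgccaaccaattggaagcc
The Mettl3 stretch, at chr14:52297560-52297613 on the minus strand in exon 6, encodes the motif DPPW of an active adenosine methyltransferase. The Mettl14 stretch, at chr3:123374784-123374837 on the minus strand in exon 7, encodes EPPL in its place, and METTL14 has no catalytic activity of its own. The Mettl16 stretch, at chr11:74792262-74792315 on the plus strand in exon 5, encodes NPPF, the motif of an enzyme that works outside the METTL3 complex.

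Family members of the list can be told apart by the reads of 150 bases. The longest exact run shared by the coding sequences of Adarb1 and Adarb2 was 20 bases, and of Ythdf1 and Ythdf2 22 bases, both far shorter than a read. They are shown as the nearest thing to a shared read between genes that are compared below, all in lower case since no base is singled out.
Adarb1 and Adarb2: tctgaccaggctgacttccc
Ythdf1 and Ythdf2: attgctagcaagcctgcaaaac
The first lies at chr10:77322094-77322113 on the minus strand and chr13:8570119-8570138 on the plus strand. The second lies at chr2:180911610-180911631 and chr4:132205103-132205124, both on the minus strand. Exons of Mettl3, Nsun2, Nsun5, Dkc1 and Mettl1 overlap exons of another protein-coding gene on the opposite strand (Tox4, Tent4a, Pom121, Mpp1 and Eef1akmt3 in that order). The strand setting of the counting used by the authors is not stated, so the values of these 5 genes are uncertain to that extent. The same limit holds for Cbll1, Fto, Pus1 and Wdr4. Their exons overlap, on the opposite strand, exons of genes that are not annotated as protein-coding and were not in the table.

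Total counts ran from 18997677 to 23873280 per library. Thy1, whose promoter drives the transgenes, had 17785 to 19139 counts in WT and 58555 to 59242 in 5xFAD, so the labels held in all 6 libraries (log2 fold change 1.73, SE 0.12, edgeR adjusted p = 0.0013). Mouse App had between 41290 and 44455 counts in WT libraries, and 5xFAD libraries had 35763 to 42267. All 5 neuron markers and all 5 hippocampus markers were expressed. The summed level of the choroid plexus markers, 4 genes of the tissue that makes cerebrospinal fluid, was 88.5 to 97.5 CPM (normalised counts per library size) in WT and 278, 425 and 169 CPM in 5xFAD replicates 1, 2 and 3. The summed neuron markers had 6765 to 7109 CPM in WT and 7963, 10070 and 6475 CPM in 5xFAD in the same order. Microglia markers had 239 to 242 CPM in WT and 394 to 451 CPM in 5xFAD, with 3 of 4 tested genes called higher, and oligodendrocyte markers 4176 to 5052 and 3548 to 3753 CPM, with none of 5 called. Red blood cell markers had 53.0 to 81.9 CPM in WT and 1.06 to 2.02 CPM in 5xFAD, with 4 of 4 called lower. None of the 4 choroid plexus markers and none of the 5 neuron markers was called. In 5xFAD replicates 1 and 2 transcripts rich in G and C were lower and those poor in them higher than in WT, with a Spearman correlation over 13707 genes of -0.52 and -0.66, against -0.07 in replicate 3. A second fit, corrected in each library for GC content and transcript length (the GC-corrected fit), is therefore given beside the first.

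The quasi-likelihood test of edgeR called no RNA modification gene at an adjusted p under 0.05. Across all genes tested 106 passed, or 0.761%. The smallest adjusted p of the list was 0.112, for Adarb1. At an unadjusted p under 0.05, 8 of the 31 genes were higher in 5xFAD, or 25.8%, against 9.87% of all genes tested, and none was lower, against 9.03%. The 8 were Adarb1, Adarb2, Cbll1, Ythdc2, Ythdc1, Mettl3, Igf2bp2 and Nsun3. Of these, Igf2bp2 passed the low-count filter only with the help of its 5xFAD libraries, where it was higher. All 3 5xFAD values lay above all 3 WT values in 10 of the 31 genes, against 13.2% of all genes tested, and below them in none, against 15.1%. The 10 were Mettl3, Virma, Cbll1, Mettl16, Ythdf1, Ythdc2, Igf2bp2, Nsun3, Adarb1 and Adarb2. In the GC-corrected fit the groups lay apart in 5 genes that were higher (Ythdf1, Ythdc2, Igf2bp2, Adarb1 and Adarb2), against 11.5% of all genes, and in 3 that were lower (Wtap, Ythdf2 and Trdmt1), against 14.1%. The genes of the list were chosen with earlier results known, and no test of the list as a whole was made.

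**Figure D1:**
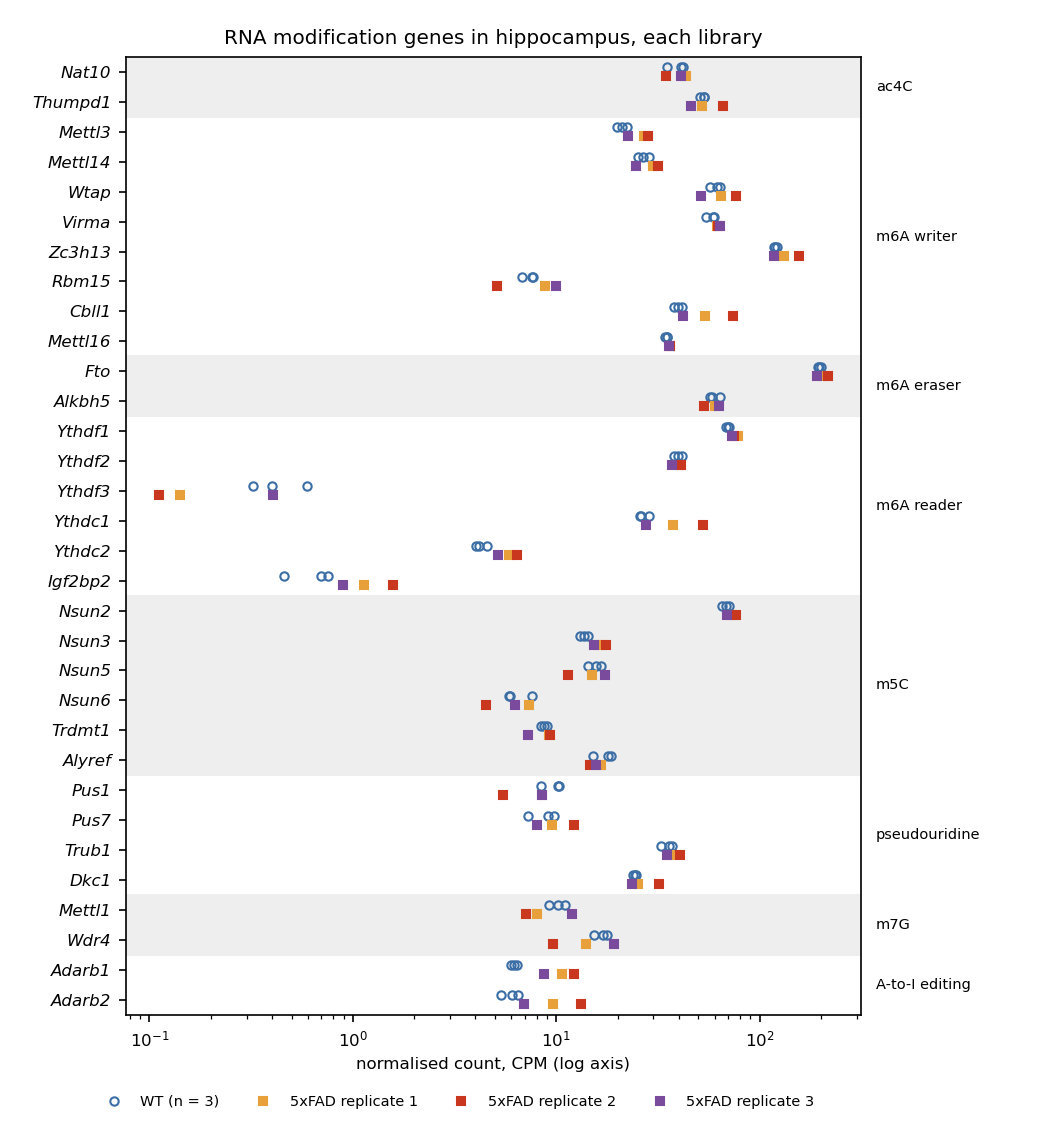
Each RNA modification gene (vertical axis, grouped by mark) with its CPM in every library on a logarithmic horizontal axis, as open circles for the 3 WT and filled squares for the 3 5xFAD libraries. The circles and squares of most genes lie on top of each other, while the squares of Adarb1, Adarb2, Cbll1, Ythdc2 and Igf2bp2 all lie to the right of the circles.

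The shift of the list was small. The median log2 fold change (5xFAD over WT) was 0.10 over the 31 genes, against -0.01 over all genes tested, and 22 of the 31 were above 0, or 71.0%, against 49.1%. In the GC-corrected fit the median of the list was -0.01 and 15 of 31 were above 0. The 95% interval of the fold change lay within a 1.5-fold change either way for 20 genes, and within 2-fold for 27. Standard errors on the log2 scale were 0.08 to 0.36, with a median of 0.13.

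Levels scattered more in 5xFAD than in WT. The coefficient of variation over 3 libraries had a median of 5.98% in WT and 14.7% in 5xFAD for the list, and 6.67% and 14.8% for all genes tested. It was larger in 5xFAD for 28 of the 31 genes, or 90.3%, against 72.3% of all genes. The highest 5xFAD value was that of replicate 2 in 19 genes, and that of replicate 1 or replicate 3 in 6 genes each.

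The ac4C pair showed no detectable difference. Nat10, the acetyltransferase (ENSMUSG00000027185, chromosome 2, 103721256 to 103761270, minus strand), had 41.2, 42.1 and 34.9 CPM in the WT and 43.6, 34.5 and 40.8 CPM in the 5xFAD libraries. The groups overlapped, and both spanned nearly the same range. On the log2 scale the fold change was 0.01 (edgeR adjusted p = 0.965, SE 0.12), with a 95% interval of the linear fold change from 0.83 to 1.22. In the GC-corrected fit it was 0.10 (adjusted p = 0.579, SE 0.09).

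Thumpd1, the adaptor for acetylation of transfer RNA (chromosome 7, 119715093 to 119720798, minus strand), had 53.0, 51.1 and 53.5 CPM in the WT and 52.0, 66.0 and 45.8 CPM in the 5xFAD libraries. Replicate 2 lay above and replicate 3 below all WT libraries. This gave a log2 fold change of 0.06 (edgeR adjusted p = 0.811, SE 0.13), with a 95% interval of the linear fold change from 0.84 to 1.29.

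Among the m6A writers, all 8 log2 fold changes were above 0, with a median of 0.11, and 4 were above 0 in the GC-corrected fit. Mettl3, the active subunit (chromosome 14, 52294841 to 52305128, minus strand), had 19.9, 22.3 and 20.97 CPM in the WT and 27.1, 28.1 and 22.5 CPM in the 5xFAD libraries. All 5xFAD values lay above the WT values, that of replicate 3 by a narrow margin. The log2 fold change was 0.30 (unadjusted p = 0.036, adjusted p = 0.251, SE 0.12), and it was 0.27 (adjusted p = 0.253, SE 0.11) in the GC-corrected fit.

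Its partner Mettl14 (chromosome 3, 123368297 to 123386108, minus strand) had 25.1, 26.8 and 28.5 CPM in the WT and 29.7, 31.6 and 24.6 CPM in the 5xFAD libraries. The groups overlapped, with 5xFAD replicate 3 the lowest of all 6. On the log2 scale the fold change was 0.10 (edgeR adjusted p = 0.630, SE 0.12), and -0.15 (adjusted p = 0.371, SE 0.08) in the GC-corrected fit. Whether the pair differed from each other was not tested.

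Cbll1, which encodes the ubiquitin ligase HAKAI of the writer complex (chromosome 12, 31484829 to 31499616, minus strand), had the smallest p of the writers. It was at 39.5, 41.5 and 38.1 CPM in the WT and 53.8, 74.1 and 42.1 CPM in the 5xFAD libraries. The groups did not overlap, but replicate 3 was just above the highest WT library while replicate 2 was far above it. This gave a log2 fold change of 0.51 (unadjusted p = 0.027, edgeR adjusted p = 0.238, SE 0.19), which was 0.22 (adjusted p = 0.270, SE 0.09) in the GC-corrected fit.

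Wtap, the subunit that anchors the pair in nuclear speckles (chromosome 17, 12966796 to 12994169, minus strand), changed direction in the GC-corrected fit. It had 56.8, 61.4 and 64.0 CPM in the WT and 64.6, 76.4 and 51.4 CPM in the 5xFAD libraries, so 2 libraries lay above and 1 below the WT range. The log2 fold change was 0.08 (edgeR adjusted p = 0.750, SE 0.14) uncorrected and -0.22 (unadjusted p = 0.013, adjusted p = 0.186, SE 0.07) after correction. At 39.6% its transcript had the lowest GC content of the 31 tested genes.

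The other writers had log2 fold changes from 0.05 to 0.18. Virma, the scaffold of the complex, was at 57.8 ± 2.72 CPM in the WT and 62.4 ± 1.16 CPM in the 5xFAD group (mean ± SD, n = 3), and Zc3h13, which keeps the complex in the nucleus, at 119 ± 1.91 and 135 ± 19.8 CPM. Rbm15, an RNA-binding guide of the complex, was at 7.36 ± 0.49 and 7.93 ± 2.52 CPM. Mettl16, a separate methyltransferase, was at 34.8 ± 0.44 and 36.1 ± 0.11 CPM, where the groups did not overlap although the log2 fold change was only 0.05 (SE 0.08).

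The erasers, which are dioxygenases that remove the methyl group, showed no detectable difference. Fto had 196, 201 and 192 CPM in the WT and 206, 216 and 191 CPM in the 5xFAD libraries, and the groups overlapped. Its log2 fold change was 0.05 (edgeR adjusted p = 0.686, SE 0.08), and the 95% interval of the linear fold change ran from 0.91 to 1.18. Alkbh5 was at 59.6 ± 3.73 CPM in the WT and 58.9 ± 5.12 CPM in the 5xFAD group (n = 3), a log2 fold change of -0.02 (adjusted p = 0.921, SE 0.10).

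Of the 5 m6A readers tested, 3 were higher in 5xFAD at an unadjusted p under 0.05, against 9.87% of all genes tested. They were Ythdc1, Ythdc2 and Igf2bp2. Igf2bp2 passed the low-count filter only with the help of its 5xFAD libraries, and Ythdf3 was left out by that filter. Without the filter 3 of 6 readers were higher at that p, against 1592 of 17385 genes. The median log2 fold change of the readers was then 0.28, against 0.45 with the filter. In the GC-corrected fit 2 of the 5 were higher at that p, against 9.04% of all genes. Leaving out 1 library gave 3 without 5xFAD replicate 3, where 2951 of 14103 genes were higher at that p. Without any other library it gave 0 or 1, where 716 of 14080 to 1223 of 14089 genes were. Ythdc1, the nuclear reader that acts on splicing and export (chromosome 5, 86804221 to 86836659, plus strand), had 25.9, 26.1 and 28.5 CPM in the WT and 37.5, 52.4 and 27.6 CPM in the 5xFAD libraries. Replicates 1 and 2 were above every WT library, and replicate 3 was inside the WT range. On the log2 scale the fold change was 0.54 (unadjusted p = 0.034, edgeR adjusted p = 0.247, SE 0.21), and 0.35 (adjusted p = 0.269, SE 0.15) in the GC-corrected fit. Its exons overlap those of a non-coding transcript on the same strand, Gm43055, which was not in the table.

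Ythdc2, an RNA helicase reader known for its role in meiosis (chromosome 18, plus strand), was at 0.59 CPM per kilobase of transcript in WT, against 8.21 for Ythdc1. With the union of all annotated exons as the length, these levels were 0.48 and 1.97. Ythdc2 had 4.18, 4.03 and 4.57 CPM in the WT and 5.85, 6.44 and 5.16 CPM in the 5xFAD libraries, with no overlap of the groups. This gave a log2 fold change of 0.45 (unadjusted p = 0.028, edgeR adjusted p = 0.239, SE 0.17), and 0.22 (unadjusted p = 0.159, adjusted p = 0.422, SE 0.14) in the GC-corrected fit.

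Igf2bp2, which binds and stabilizes methylated mRNA (chromosome 16, 22059009 to 22163299, minus strand), had the lowest level per length among the genes tested and the largest log2 fold change of the list. Its raw counts were 17, 15 and 10 in WT and 24, 28 and 22 in 5xFAD, or 0.76, 0.69 and 0.46 CPM against 1.13, 1.57 and 0.89 CPM. The groups did not overlap, but the few counts left a wide error. The gene passed the low-count filter only with the help of its 5xFAD libraries, so its place among the tested genes depended on them. The log2 fold change was 0.89 (unadjusted p = 0.037, edgeR adjusted p = 0.253, SE 0.36), with a 95% interval of the linear fold change from 1.05 to 3.28, and it was 0.94 (adjusted p = 0.247, SE 0.37) in the GC-corrected fit.

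In the deposited counts the cytoplasmic readers differed widely in level per length, with 21.8, 9.62 and 0.09 CPM per kilobase in WT for Ythdf1, Ythdf2 and Ythdf3. The annotation used in counting is not stated, and whether the Ythdf3 row holds all reads of that gene was not tested. Ythdf1 was at 69.5 ± 1.36 CPM in the WT and 75.3 ± 2.94 CPM in the 5xFAD group, with no overlap and a log2 fold change of 0.12 (edgeR adjusted p = 0.375, SE 0.08). Ythdf2 was at 39.7 ± 1.98 and 39.5 ± 2.19 CPM, and its groups overlapped. Ythdf3 had only 9, 7 and 13 counts in WT and 3, 2 and 10 in 5xFAD and was left out of the test by the low-count filter, so no difference is given for it.

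In the m5C group 1 gene of 6 was higher at an unadjusted p under 0.05, against 9.87% of all genes tested. Nsun3, the methyltransferase of a mitochondrial transfer RNA (chromosome 16, 62732444 to 62786818, minus strand), had 13.7, 14.3 and 13.02 CPM in the WT and 16.2, 17.5 and 15.2 CPM in the 5xFAD libraries, with no overlap. On the log2 scale the fold change was 0.25 (unadjusted p = 0.048, edgeR adjusted p = 0.263, SE 0.11), but 0.01 (adjusted p = 0.971, SE 0.11) in the GC-corrected fit. Its transcript has a GC content of 40.7%.

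The other m5C genes had log2 fold changes from -0.14 to 0.10. Nsun2, which acts on transfer RNA and mRNA, was at 68.0 ± 2.75 CPM in the WT and 73.1 ± 3.67 CPM in the 5xFAD group, and Nsun5, a ribosomal RNA methyltransferase, at 15.5 ± 1.14 and 14.6 ± 2.92 CPM. Nsun6 was at 6.45 ± 0.99 and 6.07 ± 1.43 CPM and the transfer RNA enzyme gene Trdmt1 at 8.69 ± 0.29 and 8.57 ± 1.13 CPM. Alyref, an mRNA export adaptor that reads m5C, was at 17.3 ± 1.79 and 15.6 ± 0.96 CPM.

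Of the pseudouridine synthases, Pus1 had the smallest p and the lowest log2 fold change of the whole list. It had 10.3, 10.2 and 8.45 CPM in the WT and 8.54, 5.49 and 8.49 CPM in the 5xFAD libraries. The groups overlapped, since WT replicate 3 was lower than 2 of the 5xFAD libraries. This gave a log2 fold change of -0.36 (edgeR adjusted p = 0.322, SE 0.20), and -0.13 (adjusted p = 0.624, SE 0.14) in the GC-corrected fit, and its GC content of 58.1% was the highest of the list. Pus7 (log2 fold change 0.18, SE 0.20), Trub1 (0.08, SE 0.10) and Dkc1 (0.15, SE 0.13), which encodes the synthase guided by small nucleolar RNAs, had adjusted p-values of 0.570, 0.610 and 0.493.

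The m7G pair, METTL1 with its partner WDR4, methylates transfer RNA, and both genes had log2 fold changes below 0. Wdr4 had 15.3, 16.9 and 17.7 CPM in the WT and 13.9, 9.63 and 19.3 CPM in the 5xFAD libraries. Replicates 1 and 2 were below and replicate 3 above all WT libraries. The log2 fold change was -0.21 (edgeR adjusted p = 0.567, SE 0.23). Mettl1 was at 10.2 ± 0.93 CPM in the WT and 9.03 ± 2.54 CPM in the 5xFAD group (log2 fold change -0.16, SE 0.21), with the same order of the 5xFAD libraries around the WT range.

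The A-to-I editing genes showed the lowest p-values of the list. Adarb1, the editing enzyme that recodes glutamate receptor transcripts (ENSMUSG00000020262, chromosome 10, 77290726 to 77418270, minus strand), had 6.004, 6.16 and 6.40 CPM in the WT and 10.6, 12.3 and 8.66 CPM in the 5xFAD libraries. The WT libraries lay close together and every 5xFAD library was above them. On the log2 scale the fold change was 0.76 (unadjusted p = 0.0017, edgeR adjusted p = 0.112, SE 0.16), with a 95% interval of the linear fold change from 1.31 to 2.20. In the GC-corrected fit it was 0.89 (adjusted p = 0.083, SE 0.19). Fewer cells of a type and less RNA per cell cannot be told apart in such bulk tissue, and the same holds for more.

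Adarb2, a relative found mainly in the brain for which no editing activity is known (chromosome 13, 8202866 to 8768747, plus strand), had 6.49, 5.33 and 6.03 CPM in the WT and 9.63, 13.2 and 6.95 CPM in the 5xFAD libraries. The groups did not overlap, with replicate 3 just above the highest WT library. This gave a log2 fold change of 0.73 (unadjusted p = 0.016, edgeR adjusted p = 0.222, SE 0.24), and 0.60 (adjusted p = 0.192, SE 0.19) in the GC-corrected fit.

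**Figure D2:**
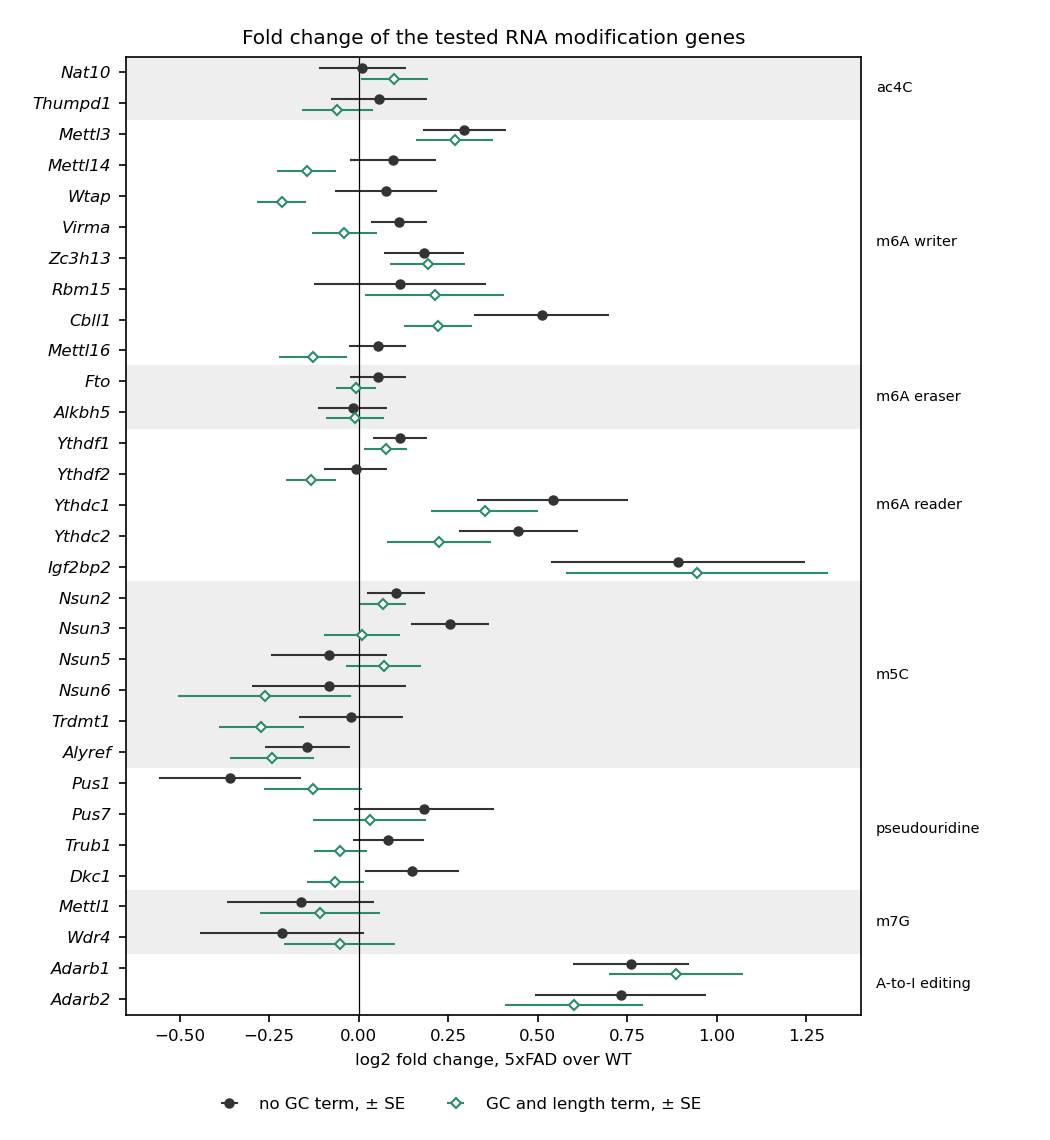
Log2 fold change of 5xFAD over WT for the 31 tested genes (vertical axis, grouped by mark), with bars of ± 1 standard error, without (filled circles) and with (open diamonds) correction for GC content and length. Adarb1, Adarb2 and Igf2bp2 lie farthest to the right in both fits, while Wtap moves from 0.08 to -0.22 and Nsun3 from 0.25 to 0.01.

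The 8 genes at an unadjusted p under 0.05 shared 1 order of the 5xFAD libraries. Replicate 2 was the highest and replicate 3 the lowest of the 3 in 8 of 8 genes. The 8 were picked by their p in these same libraries, so the shared order is not a separate result. The share of all genes with this order was not computed. Adarb1 stood at 172%, 198% and 140% of its WT mean in replicates 1, 2 and 3, and Adarb2 at 162%, 222% and 117%. Cbll1 and Ythdc1 were at 106% and 103% in replicate 3, against 187% and 195% in replicate 2. Of the 10 marker lists, 5 had the same order of 5xFAD libraries in their summed level (choroid plexus, neuron, hippocampus, astrocyte and red blood cell). The red blood cell sums, at 1.06 to 2.02 CPM in 5xFAD, were small and all lay below the WT range of 53.0 to 81.9 CPM. The microglia, oligodendrocyte, oligodendrocyte precursor and endothelium lists had replicate 3 highest and replicate 2 lowest. The part of these cell types in the differences was not tested.

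**Figure D3:**
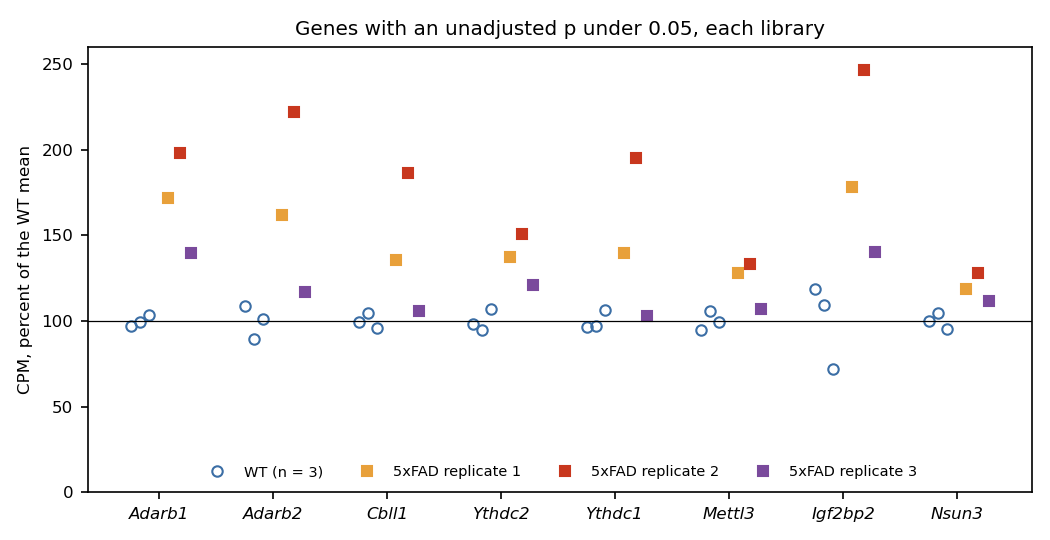
CPM of the 8 genes with an unadjusted p under 0.05, as a percent of each gene's WT mean (vertical axis from 0), in each of the 3 WT libraries (open circles) and 5xFAD replicates 1 to 3 (squares). Replicate 2 is the highest for every gene, at 222% for Adarb2 and 128% for Nsun3, and replicate 3 is the lowest 5xFAD library, at 140% for Adarb1 and 103% for Ythdc1.

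Whether a gene of the list passed depended on the libraries and the test. Without 5xFAD replicate 3 the genes Mettl3, Cbll1, Ythdc1, Adarb1 and Adarb2 passed, 5 of 31, where 22.9% of all genes tested passed. Their log2 fold changes in that fit ran from 0.39 for Mettl3 to 0.94 for Adarb2, with edgeR adjusted p-values from 0.017 for Adarb1 to 0.035 for Mettl3. In the GC-corrected fit without that library Mettl3, Ythdc1, Adarb1 and Adarb2 passed, 4 of 31, against 8.34% of all genes. In the GC-corrected fit of all 6 libraries none passed, against 1.26%, and 6 genes were higher and 1 lower at an unadjusted p under 0.05, against 9.04% and 9.06% of all genes. Adarb1 alone passed by DESeq2, which called 3.64% of all genes, and by the edgeR exact test, which called 4.1%. Its adjusted p ranged from 0.000185 to 0.490 over the 20 alternatives. The lowest value came from limma-voom with quality weights, which called 52.9% of all genes. With that setting left aside the lowest was 0.0041.

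Over the 31 tested genes the Spearman correlation of the deviation from the WT mean with GC content was -0.23 in 5xFAD replicate 1, -0.37 in replicate 2 and 0.38 in replicate 3. In the WT libraries, each set against the other 2, it was -0.05, 0.38 and -0.10, so over 31 genes values of this size also arose among WT libraries. Over 13707 genes the WT libraries had -0.008, 0.06 and -0.06, against -0.52, -0.66 and -0.07 in 5xFAD replicates 1, 2 and 3. Of the 11 genes with a GC content under 45%, 9 had a log2 fold change above 0, and 4 in the GC-corrected fit. Of the 11 genes at 50% or more, 6 were above 0, and 7 in that fit.

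**Figure D4:**
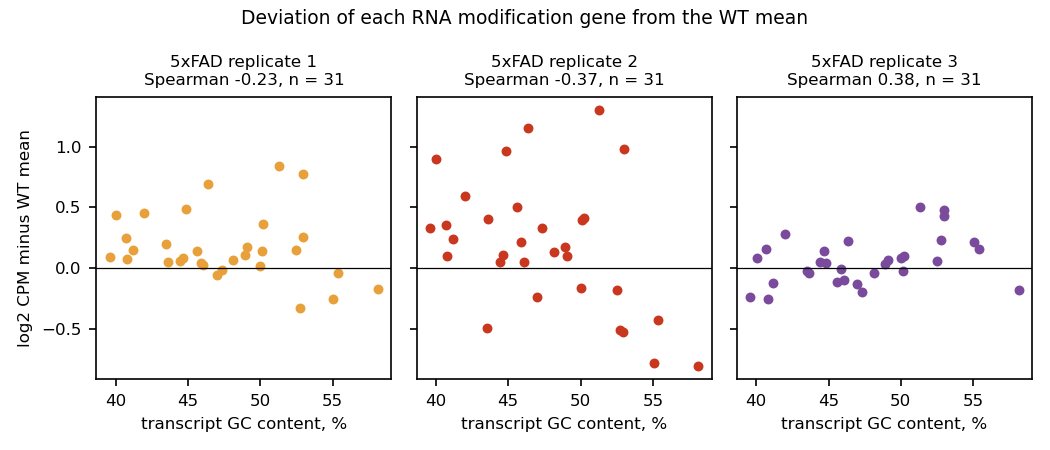
Deviation of the log2 CPM of each of the 31 genes from its WT mean (vertical axis) against the GC content of its transcript in percent (horizontal axis), with 1 panel per 5xFAD library and 1 point per gene. Points fall from left to right in replicates 1 and 2 (Spearman -0.23 and -0.37) and rise in replicate 3 (0.38).

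Per length of transcript the genes covered a wide range of levels. In WT the levels were 41.8 ± 0.94 CPM per kilobase for Fto, the highest, 21.8 ± 0.43 for Ythdf1 and 19.5 ± 0.48 for Thumpd1 (mean ± SD, n = 3). Fto was thus above Ythdf1 in every WT library, while Thumpd1, Zc3h13 and Wtap followed with overlapping ranges. Mettl3 at 10.4 ± 0.60 and Nat10 at 10.2 ± 1.01 CPM per kilobase did not differ beyond their spread, nor did Alkbh5 and Cbll1 between them. Mettl14 was at 3.73 ± 0.24 CPM per kilobase, below Mettl3 in each WT library.

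The lowest levels belonged to genes that were higher in 5xFAD at an unadjusted p, and to Ythdf3. Adarb1 was at 0.93 ± 0.03 and Adarb2 at 0.89 ± 0.09 CPM per kilobase in WT, with overlapping ranges, followed by Ythdc2 at 0.59 ± 0.04 and Igf2bp2 at 0.16 ± 0.04. Ythdf3 was at 0.09 ± 0.03. Of the 31 neighbouring pairs in the order, 17 had overlapping WT ranges. With the union of all annotated exons as the length, the order was similar (Spearman 0.94 over the 32 genes), but Ythdf1 came first and Fto the fourth, and Ythdc1 moved from rank 15 to 24 and Mettl3 from 7 to 16.

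**Figure D5:**
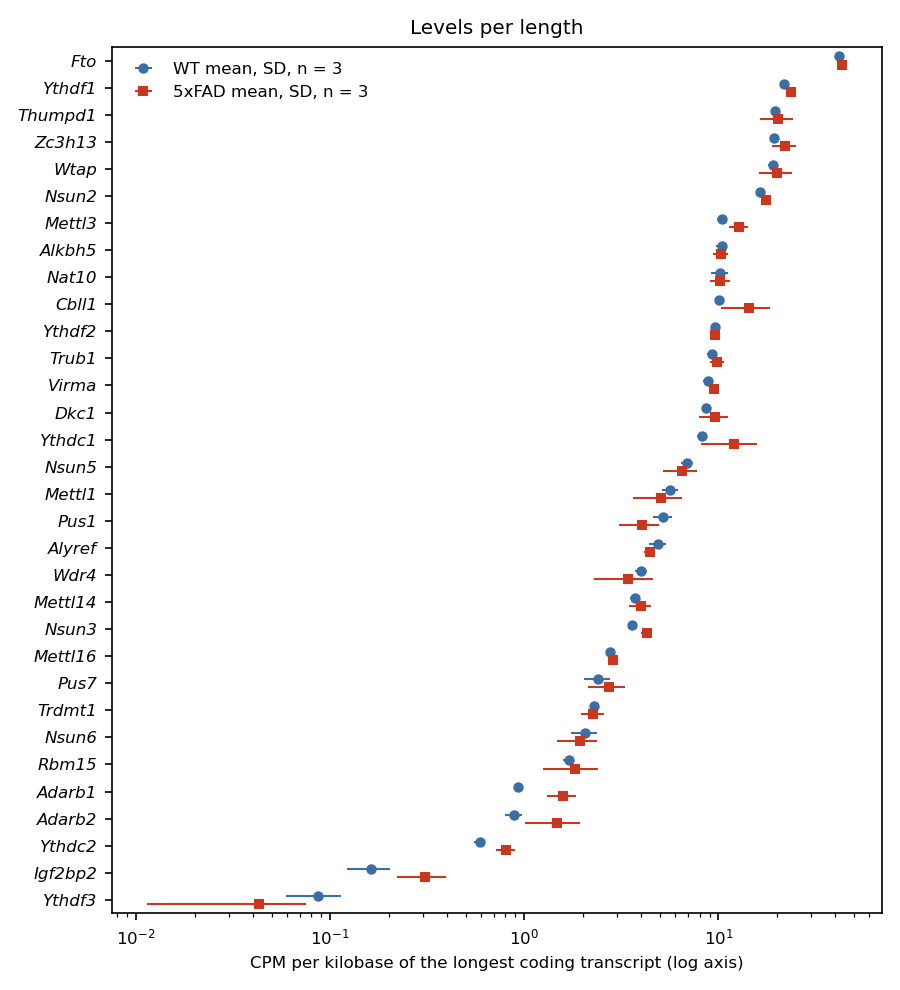
CPM per kilobase of the longest coding transcript (logarithmic horizontal axis) for the 32 genes in order of their WT level, as mean and SD of 3 WT (circles) and 3 5xFAD libraries (squares). Levels run from 41.8 for Fto to 0.09 for Ythdf3 in WT, and the squares of Adarb1, Adarb2, Ythdc2 and Igf2bp2 stand to the right of the circles.

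Further genes of RNA modification were compared in the same fit. Of 62 others on a fixed list (m6A, m5C, m1A, m7G, pseudouridine, ribose methylation, wobble uridine and further editing genes), 60 were in the table and 58 were tested. None was called by the quasi-likelihood test of edgeR, against 0.761% of all genes tested. At an unadjusted p under 0.05, 3 of the 58 were higher, against 9.87% of all genes, and 4 lower, against 9.03%. The median log2 fold change was 0.00. DESeq2 called none, against 3.64% of all genes, and the edgeR exact test 1, Ctu1, against 4.1%.

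The 6 of these with the smallest p lay on both sides of 0, and each was nearer to 0 in the GC-corrected fit. Mettl4, a methyltransferase of small nuclear RNA, had 6.80 ± 0.59 CPM in the WT and 10.4 ± 1.80 CPM in the 5xFAD group (log2 fold change 0.60, edgeR adjusted p = 0.190, and 0.35 after GC correction). Hnrnpa2b1, a nuclear protein that binds m6A transcripts, had 136 ± 4.37 and 166 ± 10.8 CPM (0.29, adjusted p = 0.192, and 0.06 after correction), and Naf1, an assembly factor of the guided pseudouridine synthase, 19.7 ± 0.62 and 31.4 ± 10.2 CPM (0.67, adjusted p = 0.224, and 0.58 after correction). Lower were Ctu1, which thiolates wobble uridine in transfer RNA (-0.67, adjusted p = 0.193, and -0.41 after correction), Trmt61a, the m1A methyltransferase of transfer RNA (-0.58, adjusted p = 0.234, and -0.34 after correction), and Rpusd1, a pseudouridine synthase (-0.43, adjusted p = 0.236, and -0.18 after correction). The GC content of these 3 was 58.6% to 58.8%, and of the 3 higher genes 40.3% to 48.0%. Adar, the widely expressed editing enzyme of the same family as Adarb1, was named after its values were seen. It had 255 ± 2.56 CPM in the WT and 208 ± 40.4 CPM in the 5xFAD group (log2 fold change -0.29, SE 0.14, adjusted p = 0.279, and -0.17 after correction).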

How the data were processed

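Hippocampal RNA of 3 WT and 3 5xFAD samples was depleted of ribosomal RNA and sequenced as paired-end reads of 150 bases. The authors trimmed reads with cutadapt 1.9.3, aligned them to mm10 with HISAT2 2.0.4 and counted them per gene with HTSeq 0.9.1, with edgeR 3.16.5 for their own comparison (methods and submitters' processing notes). Neither the annotation nor the strandedness used in counting is stated in those sources. The deposited raw read counts per gene were used as they are. A further 6 per-sample columns of normalised values and the authors' fold changes and p-values were left aside. Sample titles gave the groups. The p-values set the difference between the groups against the spread between samples within them.

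The tests were run in R 4.3.3 (edgeR 4.0.16). The filterByExpr function, set to a minimum count of 10, removed low genes, libraries were scaled by TMM, and the groups were compared by the two-sided quasi-likelihood test on all 6 libraries without a block. Benjamini-Hochberg adjustment ran over all genes tested, with a threshold of 0.05. CPM use TMM effective library sizes. The standard error is the log2 fold change over the square root of F. An exact permutation of 3 against 3 libraries cannot go below a two-sided p of 0.1, and none was run. GC content and length are those of the longest protein-coding transcript in GENCODE M21 (GRCm38, the build of mm10), known for 98.3% of genes tested. The start and end given for a gene are those of the whole gene in that release. The GC and length correction is a spline with 4 degrees of freedom per library, used as an offset, and log2 CPM for deviations carry a prior count of 0.5. Alternatives were DESeq2 1.42.0, limma 3.58.1 (voom), other scalings and filters, the replicate block and leaving out libraries. The steps were tested on simulated counts.

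All 32 genes are named. Values of every library are given for genes with an unadjusted p under 0.05 in either fit, for Nat10, Thumpd1, Mettl3 and Mettl14, and for the gene with the smallest p of each class. Of the other RNA modification genes the 6 with the smallest p are named. The genes, lists and alternatives were chosen with earlier results of these data known. Intervals rest on replicate spread, and, without molecular identifiers, a read need not be an independent molecule.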

Additional observations from a re-analysis of the deposited data

How the results depend on the processing

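The count of genes called among all tested (106) was 69 with library totals, 507 by DESeq2, 572 by the edgeR exact test, 7378 by limma-voom with quality weights, 20 with the replicate block, 176 in the GC-corrected fit and 1176 in that fit without 5xFAD replicate 3. The count of RNA modification genes called (0) was 1 by DESeq2 and by the exact test, 14 with quality weights (52.9% of all genes) and 4 in the GC-corrected fit without 5xFAD replicate 3. The count at an unadjusted p under 0.05 (8, all higher) was 16 with quality weights (13 higher and 3 lower, 59.3% of all genes). It was 5 with the replicate block (all higher, 16% of all genes). The count of genes whose groups did not overlap (10, all higher) was 20 of 32 with 5xFAD replicate 3 alone (15 higher and 5 lower, 59.6% of all genes). It was 16 of 31 in the GC-corrected fit without replicate 3 (10 higher and 6 lower, 49.2% of all genes). Of the other RNA modification genes (0 called), 1 passed by the exact test (4.1% of all genes) and 30 with quality weights (52.9%). In the GC-corrected fit without replicate 3, 3 passed (8.34% of all genes). The median log2 fold change of the list (0.10) was -0.0075 in the GC-corrected fit, -0.0076 in that fit with the replicate block, and 0.016 in that fit without replicate 3. The median WT level per kilobase was 3.88 with the union of exons as length.

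Leaving out each library in turn gave 12 to 3229 genes called, of which 3229 without 5xFAD replicate 3. RNA modification genes called were 0 to 5, those at an unadjusted p under 0.05 were 2 to 11, those without overlap were 10 to 20, and the other RNA modification genes called were 0 to 13, where the highest value of each was that without 5xFAD replicate 3. In that fit 41.8% of all genes had an unadjusted p under 0.05 and 61.2% had no overlap. Its 11 RNA modification genes at an unadjusted p under 0.05 were 9 higher and 2 lower, and its 20 without overlap 18 higher and 2 lower. The lowest counts at an unadjusted p, 2, were those without WT replicate 1 or 2, against 9.13% and 9.51% of all genes.

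Directions turned in Wtap (-0.22 in the GC-corrected fit, -0.21 with the block added, -0.22 with replicate 3 alone, -0.20 in the GC-corrected fit without replicate 3), Thumpd1 (-0.18 with replicate 3 alone), Mettl16 (-0.21) and Nsun3 (-0.066, both in the GC-corrected fit without replicate 3). Of 780 recomputed fold changes of 39 named genes, 52 more changed sign while neither fit had an unadjusted p under 0.05. Replicate numbers did not pair the libraries (correlation of deviations 0.0027, -0.037 and -0.049 for equal numbers), and no RNA modification gene passed with the block. The cause of these changes was not tested. Low counts limit Igf2bp2, with 10 to 28 per library, and Ythdf3, with 2 to 13.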
